A study of Mus musculus with 15 samples.

Results

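A set of 10 genes that mark fat cells was followed through RNA-Seq counts of mouse pancreas. They are the adipokines Adipoq, Lep, Retn and Cfd, the lipid uptake genes Lpl and Fabp4, the lipid droplet and lipolysis genes Plin1, Cidec and Lipe, and the regulator Pparg. They are 10 of the 15175 genes that all 3 deposited count tables list. The set was chosen by the levels of Adipoq and Lep, which were higher in MC pancreata than in their controls, so MC is described here without a test. The other 2 comparisons were not used in that choice and were tested.

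The mice were C57BL/6, and each library held RNA pooled from the pancreata of 3 mice. MC mice carry M46, a kinase-dead form of HPK1 (the kinase encoded by Map4k1), and libraries labelled HC come from mice with the HPK1 transgene. In both lines the transgene is switched on by Bac-cre, a tamoxifen-inducible Cre driven by the acinar elastase I promoter, so it is meant to act in acinar cells and not in fat cells. MC (3 libraries, genotype HPK1-M46 transgenic) and its controls (3 libraries, B control) were 2 months old. The libraries labelled HC (3, genotype HPK1/B) and their wild-type controls (2, WT) were 4 months old. Per the study, the pancreata of these experiments were taken 24 h after cerulein, a peptide that injures acinar cells. KMC (2 libraries with M46, 9 months) and KC (2 libraries without it, 15 months) share the same Cre and a further allele, and the study describes them as pancreatic cancer samples, while the labels give pancreas. Nothing says whether libraries of 1 group shared litters or days, so the p-values measure the spread between pools.

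White adipocytes store triglyceride in 1 large lipid droplet and release fatty acids and hormones into the blood. PPARγ, encoded by Pparg, drives their differentiation, and perilipin 1 and CIDEC coat and enlarge the droplet. The pancreas lies in visceral fat and holds scattered adipocytes between its lobules. Fabp4, Lpl, Lipe and Pparg are also used outside fat: Fabp4 by capillary endothelium and macrophages, Lpl by macrophages and other cells, Lipe by steroid-making and islet cells, and Pparg by macrophages and some epithelia. In bulk tissue, fewer cells of a type and less RNA per cell cannot be told apart.

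Sequence before the start site is shown for Adipoq, the gene that headed the choice, and for Lep and Plin1, in which a motif of the adipocyte regulators C/EBP was found. These are the 250 bases upstream of the RefSeq start on GRCm38.p6, read 5′ to 3′ on the gene's strand, and capitals mark the motif TTGCNNAA.
Adipoq, chr16:23146286-23146535, plus strand: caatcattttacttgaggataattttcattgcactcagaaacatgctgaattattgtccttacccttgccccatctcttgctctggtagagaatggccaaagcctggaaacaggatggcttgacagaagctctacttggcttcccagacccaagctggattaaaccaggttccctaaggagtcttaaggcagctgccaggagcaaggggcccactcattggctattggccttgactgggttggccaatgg
Lep, chr6:29059971-29060220, plus strand: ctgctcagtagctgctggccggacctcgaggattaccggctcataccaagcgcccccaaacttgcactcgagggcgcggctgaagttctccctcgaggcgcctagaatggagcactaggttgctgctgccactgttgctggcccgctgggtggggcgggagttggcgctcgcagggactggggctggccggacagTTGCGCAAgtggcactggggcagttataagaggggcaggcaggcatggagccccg
Plin1, chr7:79732777-79733026, minus strand: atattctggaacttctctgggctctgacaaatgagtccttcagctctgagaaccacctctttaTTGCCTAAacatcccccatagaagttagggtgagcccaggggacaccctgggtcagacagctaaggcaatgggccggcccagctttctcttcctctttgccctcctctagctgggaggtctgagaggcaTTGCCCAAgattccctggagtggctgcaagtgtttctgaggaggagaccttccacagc

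The Lep match lies 55 to 48 bases upstream of the start and reads the same on both strands. Those of Plin1 lie 187 to 180 and 58 to 51 bases upstream. RefSeq windows were at hand for 8 of the 10 genes, all but Fabp4 and Lpl. Pparg had 3 windows and Cidec and Lipe 2 each, and for these only the window nearest the annotated gene start was searched. Both strands were searched for TTGCNNAA, for the nuclear receptor half-site AGGTCA and for TATAAA. TTGCNNAA was in 9.56% of 32851 promoter windows of the same length, AGGTCA in 14.0% and TATAAA in 12.4%. In the windows searched, AGGTCA was found only before Pparg, 28 to 23 bases upstream, and TATAAA before none of the 8. A match is a description of letters and not a binding site.

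Libraries held 29766575 to 38745907 counts. Levels are CPM, counts scaled to the TMM library size of edgeR, and a count of 0 allows up to 3 counts, or 0.0357 to 0.204 CPM, for counting error only. Map4k1 had 6.79 to 8.32 CPM in MC against 2.34 to 4.14 in controls, and 5.92 and 11.4 in KMC against 0.545 and 1.55 in KC. In the libraries labelled HC it had 5.05 to 7.93 CPM and in their controls 11.5 and 15.4. That goes against the label if transgene reads were counted as Map4k1, which is not stated. Acinar marker genes took 5.76 to 9.04% of counts in every library of the HC experiment, and 24.6 to 68.8% in the libraries of MC, KMC, KC and the MC controls. HC 3 had 1525 counts of the Y-linked Ddx3y and the other libraries of that experiment 0, so sexes were mixed there. KC 1 and KC 2 had 157 and 448 counts of Ddx3y and both KMC libraries 0, so sex and age cannot be told apart from the M46 transgene in that comparison. The sex genes are not listed in the MC table.

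The 10 genes fell into 2 kinds by how far their levels moved between libraries, a division made after the values were seen. Adipoq, Lep, Retn, Cfd, Plin1 and Cidec, the genes more restricted to fat, spanned at least 4-fold between the highest and the lowest library of every table. Fabp4, Lpl, Lipe and Pparg spanned less than 3-fold in every table. The summed level of the first 6 was 105, 66.9 and 22.3 CPM in MC 1, 2 and 3 and 1.39, 2.92 and 10.5 CPM in their controls. It was 3.01, 7.15 and 9.64 CPM in the libraries labelled HC, 2.50 and 17.9 CPM in HC controls 1 and 2, 32.5 and 8.21 CPM in KMC 1 and 2, and 3.54 and 116 CPM in KC 1 and 2. By this scaling, made within each table, KC 2 at 116 CPM stood above MC 1 at 105 CPM. The tables were not put on 1 scale or tested against each other, so the order of these 2 libraries can depend on the scaling. The summed level of the other 4 stayed between 114 and 257 CPM in all 15 libraries.

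**Figure D1:**
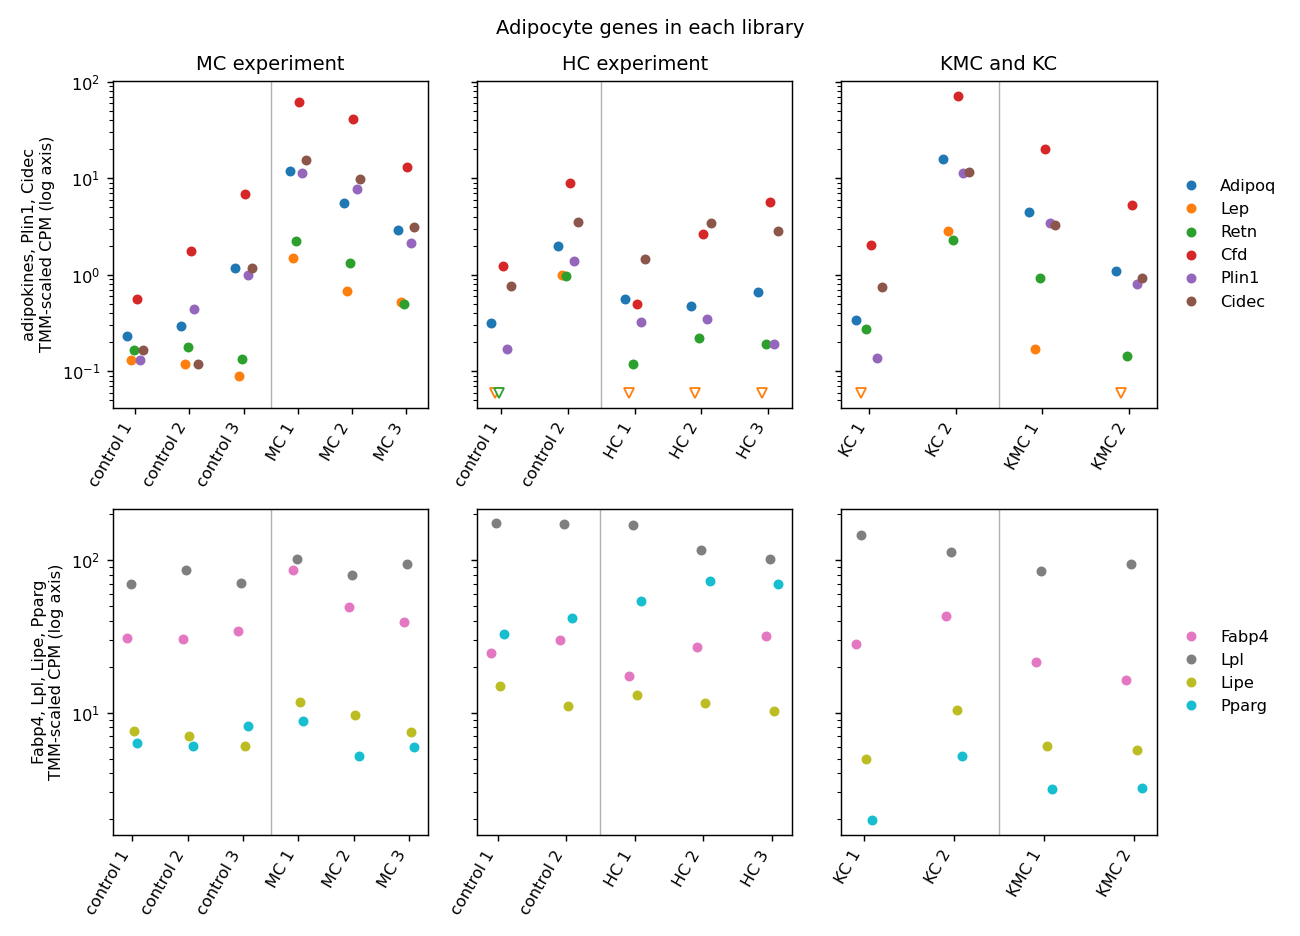
TMM-scaled CPM of each gene (log axis) in every library, with the 6 fat-restricted genes above and Fabp4, Lpl, Lipe and Pparg below; columns are the 3 experiments, the grey line separates controls from the other group, and open triangles stand for values under 0.06 CPM. The upper genes are all highest in KC 2 and MC 1 of their experiments, while the lower genes stay within a narrow band in each experiment. The upper genes do not move together everywhere: from MC control 1 to MC control 3 Adipoq, Cfd, Plin1 and Cidec rise, while Lep and Retn do not.

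Adipoq encodes adiponectin, a hormone made almost only by adipocytes (chromosome 16, 23146536 to 23158028, GRCm38). Its level was 12.1, 5.52 and 2.94 CPM in MC 1, 2 and 3 and 0.231, 0.298 and 1.17 CPM in MC controls 1, 2 and 3. The groups did not overlap, and the lowest MC library was 2.94 CPM against 1.17 CPM in the highest control. In the HC experiment Adipoq was at 0.561, 0.477 and 0.666 CPM in the libraries labelled HC and at 0.316 and 2.00 CPM in the controls, which lay on both sides of them. In KMC 1 and 2 it was at 4.52 and 1.08 CPM, and in KC 1 and 2 at 0.340 and 15.9 CPM, again on both sides.

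Lep encodes leptin, the satiety hormone that rises with fat mass (chromosome 6, 29060220 to 29073877). Its counts were few, with 44, 29 and 21 counts in MC 1, 2 and 3 and 4, 4 and 2 in the controls, or 0.518 to 1.49 CPM against 0.0899 to 0.132 CPM. The libraries labelled HC had 2, 0 and 0 counts, HC control 1 had 0 and HC control 2 had 39. KMC had 7 and 2 counts, KC 1 had 0 and KC 2 had 73. Outside MC, leptin reads were thus found above the 3-count limit in only 3 of 9 libraries, and most of them in HC control 2 and KC 2.

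Retn encodes resistin (chromosome 8, 3655770 to 3660110) and Cfd encodes adipsin, the complement factor D (chromosome 10, 79890853 to 79892655). Retn was at 2.27, 1.34 and 0.494 CPM in MC and 0.135 to 0.179 CPM in the controls. HC control 1 had 0 counts of Retn, HC control 2 had 0.973 CPM, and the libraries labelled HC had 0.118 to 0.222 CPM between them. KMC 1 and 2 had 0.934 and 0.143 CPM of Retn, and KC 1 and 2 had 0.272 and 2.28 CPM. Cfd was the most abundant of the adipokines per kb of exon in every library. It was at 62.2, 41.7 and 13.1 CPM in MC 1, 2 and 3 and at 0.562, 1.76 and 6.92 CPM in their controls. The libraries labelled HC had 0.502, 2.67 and 5.74 CPM of Cfd and their controls 1.23 and 8.99 CPM. KMC 1 and 2 had 20.1 and 5.24 CPM, and KC 1 and 2 had 2.04 and 71.7 CPM, so for Cfd the KC libraries again lay on both sides of KMC, while the lowest Retn level was in KMC 2.

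Plin1, the droplet coat that gates lipolysis, lies on the minus strand of chromosome 7 (79720218 to 79732903), and Cidec, which fuses droplets, on the minus strand of chromosome 6 (113424634 to 113435760). Plin1 was at 11.3, 7.76 and 2.15 CPM in MC and 0.132, 0.447 and 0.988 CPM in the controls, and Cidec at 15.4, 9.92 and 3.11 CPM against 0.165, 0.119 and 1.17 CPM. Neither gene's groups overlapped. In the HC experiment Plin1 was at 0.325, 0.350 and 0.190 CPM in the libraries labelled HC and at 0.172 and 1.41 CPM in the controls. Cidec was at 1.45, 3.43 and 2.85 CPM there, against 0.775 and 3.53 CPM in the controls. KMC 1 and 2 had 3.46 and 0.798 CPM of Plin1 and 3.27 and 0.917 CPM of Cidec. KC 1 and 2 had 0.136 and 11.4 CPM of Plin1 and 0.749 and 11.8 CPM of Cidec, so 1 KC library was below both KMC libraries and the other above them.

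Fabp4, the fatty acid carrier of adipocytes (chromosome 3, 10204088 to 10208576, minus strand), stood at 85.9, 49.6 and 39.5 CPM in MC and 30.9, 30.2 and 34.3 CPM in their controls. It was at 17.5, 26.8 and 31.8 CPM in the libraries labelled HC and 24.6 and 30.2 CPM in their controls. In KMC it was at 21.4 and 16.4 CPM, below KC at 28.2 and 43.1 CPM. Fabp4 thus lay higher than controls in every MC library and lower than KC in both KMC libraries, and overlapped its controls in the HC experiment. Lpl, the lipase that frees fatty acids from lipoproteins (chromosome 8, 68880491 to 68907448), was at 101, 79.9 and 94.2 CPM in MC and 69.4, 86.0 and 70.7 CPM in their controls, and the groups overlapped. It was at 171, 116 and 102 CPM in the libraries labelled HC and at 174 and 174 CPM in their controls. KMC had 84.4 and 93.8 CPM of Lpl, and KC 145 and 114 CPM.

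Lipe, the hormone-sensitive lipase (chromosome 7, 25379527 to 25398710, minus strand), ranged from 4.97 to 14.9 CPM over all 15 libraries, and its groups overlapped in every experiment. It overlaps 4732471J01Rik on the other strand, and whether reads were counted by strand is not stated, so reads of that gene may be among those of Lipe. Pparg (chromosome 6, 115360951 to 115490399) was at 8.79, 5.17 and 5.95 CPM in MC and in their controls at 6.35, 6.07 and 8.18 CPM, and the groups overlapped. Libraries labelled HC had 54.1, 73.2 and 69.6 CPM of Pparg and their controls 32.9 and 42.0 CPM. In KMC it was at 3.15 and 3.19 CPM and in KC at 1.97 and 5.19 CPM. Pparg is overlapped on the other strand by Gm44079, with the same limit.

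In MC, Cidec had the largest log2 fold change of the 10, 4.42 (SE 0.90, n = 3 and 3), followed by Plin1 with 3.81 (SE 0.78), Cfd with 3.71 (SE 0.89), Adipoq with 3.67 (SE 0.74), Retn with 3.04 (SE 0.64) and Lep with 2.89 (SE 0.58). Fabp4 stood at 0.87 (SE 0.27), Lipe at 0.48, Lpl at 0.28 and Pparg at -0.05. For 7 of the 10 genes, all but Lpl, Lipe and Pparg, every MC library was above every control, as were 10.9% of the 13902 genes fitted. The median log2 fold change was 2.96 over the 10 genes and -0.02 over all fitted genes. Since this contrast chose the genes, these values are a description. Lep and Retn had at most 6 counts in every control and passed the filter on low counts only through MC, where they are high. Without that filter the median of the 10 was also 2.96. All 10 genes were highest in MC 1, and without that library the median of the 10 was 2.42 and Adipoq stood at 2.98. Without MC control 3, the control highest in the summed fat-restricted genes, Cidec stood at 6.04, Cfd at 5.06, Adipoq at 4.67 and Plin1 at 4.57.

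MC 1 also stood highest in lymph node markers, which include the B cell gene Ms4a1. Their summed level was 142, 37.0 and 7.01 CPM in MC 1, 2 and 3 and 3.77 to 10.5 CPM in the controls, with 7 of the 8 markers listed and Fcer2a at 0 in MC control 3. The order of the MC libraries by this sum was the same as by the sum of the 6 fat-restricted genes. In MC 3, where lymph node markers lay within the controls' range, the 6 genes summed to 22.3 CPM, above the highest control at 10.5 CPM. Summed macrophage markers were 1034 to 1485 CPM in MC and 515 to 1311 CPM in the controls, and endothelial markers 121 to 141 and 104 to 128 CPM. Mesothelial markers, from the lining of the abdominal cavity that also covers fat, summed to 55.1, 55.6 and 29.0 CPM in MC 1, 2 and 3 and 21.5 to 37.8 CPM in the controls. The part of these markers in the result was not tested.

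In the libraries labelled HC none of the 10 genes was called against the controls. The test was the quasi-likelihood test of edgeR, and a call needed a Benjamini-Hochberg adjusted p over all genes of at most 0.05 and a log2 fold change of at least 1 in size. Of 18407 genes tested, 0.467% were called higher and 0.0978% lower. Lep and Retn did not pass the filter on low counts, and the other 8 genes did. By an unadjusted p under 0.05, 1 of the 8 passed, against 15.9% of all genes. DESeq2 called 0 of the 10, but gave Adipoq and Plin1 no adjusted p, so these 2 could not be called. Its adjusted p for Lep and Retn is not given here. It called 266 higher and 203 lower of 31252 genes fitted, a number that includes genes without an adjusted p. The median log2 fold change was -0.29 over the 8 genes, with 2 above 0 and 6 below, and 0.00 over all genes.

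Pparg was the gene with p under 0.05. Its log2 fold change was 0.81 (SE 0.17, edgeR adjusted p = 0.109), from 37.5 ± 6.42 CPM (SD, n = 2) in the controls to 65.6 ± 10.1 CPM (SD, n = 3), and all 3 libraries labelled HC lay above both controls, as for 17.5% of all genes. This was under the fold needed for a call, and the adjusted p depended on the setting, from 0.00311 by DESeq2 to 0.717. Without HC 3, the library with Y-linked reads, it was 0.245, with a log2 fold change of 0.75. Without HC 1 it was 0.0339, with 0.93. Lpl was lower in all 3 libraries labelled HC than in the controls, as were 16.1% of all genes, with a log2 fold change of -0.43 (SE 0.22, adjusted p = 0.407), and -0.68 without HC 1 (adjusted p = 0.0461). Islet markers summed to 3501 to 5598 CPM in the libraries labelled HC and 2940 to 3162 CPM in their controls, ductal markers to 5536 to 6752 and 4962 to 5244 CPM, and macrophage markers to 1560 to 2407 and 2448 to 4201 CPM. Endothelial markers summed to 235 to 305 CPM in the libraries labelled HC and 310 to 402 CPM in their controls. Each of these sums separated the groups, as Pparg and Lpl did, and their part in those values was not tested. The sums of acinar, fibroblast, lymph node, mesothelial and skeletal muscle markers overlapped between the groups.

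The fat-restricted genes of the HC experiment had log2 fold changes of -1.46 (SE 0.81, adjusted p = 0.443) for Plin1, -1.03 (SE 0.70, adjusted p = 0.534) for Adipoq, -0.79 (SE 1.03, adjusted p = 0.774) for Cfd and 0.25 (SE 0.65, adjusted p = 0.896) for Cidec. The sign of Plin1, Adipoq and Cfd turned without HC control 2, to 0.73, 0.84 and 1.26. Cidec stood at 1.73 without HC control 2, at -0.46 without HC control 1 and at -0.01 without HC 2. Without HC control 2, the median of the 8 genes then fitted was 0.79, with 6 above 0. Without HC control 1 the median of the same 8 genes was -0.44. Lep and Retn then passed the filter only through HC control 2, where they are high, and are left out of it.

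In KMC none of the 10 genes was called against KC, where 0.00636% of 15733 genes were called higher and 0.0127% lower. All but Lep passed the filter, which left 9 genes. By an unadjusted p under 0.05, 1 of the 9 passed, against 25.6% of all genes. DESeq2 called 0 of the 10, and 7.64% of the 27870 genes fitted, counting any that had no adjusted p. Its adjusted p for Lep is not given here. All 9 had a log2 fold change below 0, with a median of -1.34 against 0.03 over all genes. For Cidec it was -1.62 (SE 1.08), for Adipoq -1.57 (SE 1.27), for Cfd -1.55 (SE 1.26), for Plin1 -1.48 (SE 1.34) and for Retn -1.34 (SE 1.11). Their edgeR adjusted p ran from 0.367 for Cidec to 0.504 for Plin1, and the groups overlapped for all 5. Fabp4, the gene with p under 0.05, had -0.92 (SE 0.36, adjusted p = 0.171), Lpl -0.54 (SE 0.41, adjusted p = 0.429), Lipe -0.39 (SE 0.43, adjusted p = 0.584) and Pparg -0.19 (SE 0.53, adjusted p = 0.841). Fabp4 and Lpl were the 2 of 9 genes with both KMC libraries below both KC libraries, as were 30.9% of all genes.

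These values rested on single libraries and on the scaling. Without KC 2, 7 of the 9 genes were above 0, with a median of 0.93 and 0 called. Without KMC 1, Adipoq, Lep, Cfd, Plin1 and Cidec were called lower, as were 4.02% of 16957 genes, and the median of the 9 genes was -2.81. In that fit Lep passed the filter only through KC 2, where it is high, and for the other 4 genes KMC 2 lay above KC 1. Scaling by library size alone moved the median of all genes from 0.03 to 1.47, and Fabp4, Lpl, Lipe and Pparg then stood at 0.42, 0.97, 0.95 and 1.14, each above 0 and each below that median. Acinar markers took 24.6 to 49.1% of counts in KMC and 60.1 to 68.8% in KC, and fibroblast markers summed to 2187 to 6265 CPM against 470 to 924 CPM. Macrophage markers summed to 910 to 2873 CPM in KMC and 290 to 337 CPM in KC, ductal markers to 620 to 878 and 458 to 534 CPM, and islet markers to 769 to 1490 and 1593 to 3076 CPM, and none of these sums overlapped. Endothelial markers summed to 102 to 148 CPM in KMC and 93.2 to 98.7 CPM in KC, and did not overlap either. Lymph node and mesothelial sums overlapped. The part of these cell type markers in the values above was not tested.

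**Figure D2:**
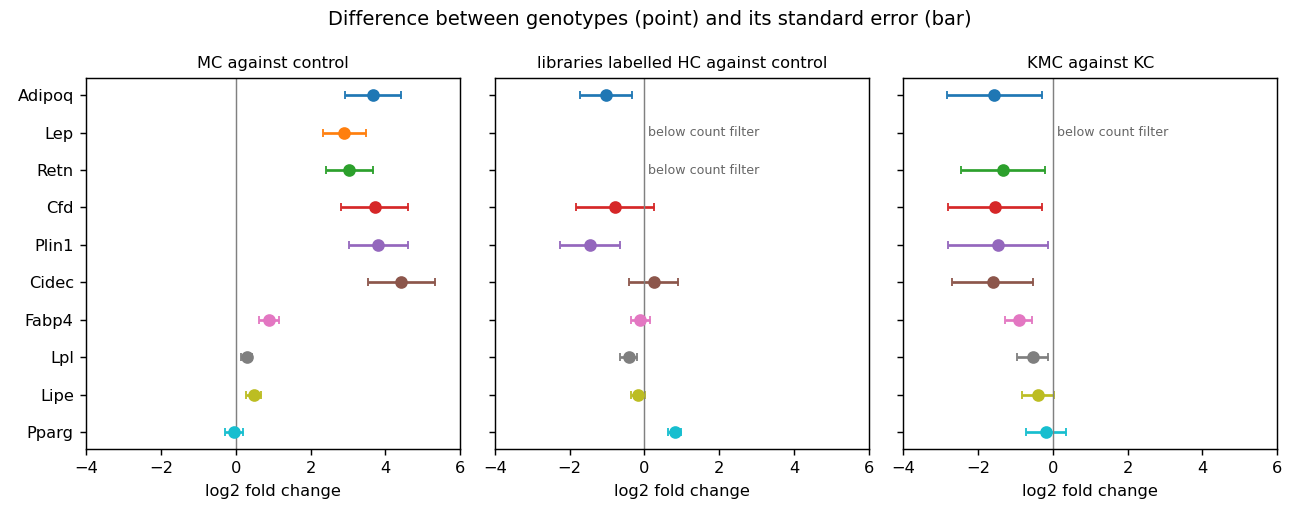
Log2 fold change of each gene (point) with its standard error (bar) in the 3 comparisons, from the edgeR fits. The 6 fat-restricted genes lie between 2.89 and 4.42 in MC, which chose the genes, while the bars of the same genes are wide in KMC against KC.

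Libraries of the same group also stood far apart in the fat-restricted genes. KC 2 was above KC 1 46.6-fold for Adipoq, 35.1-fold for Cfd, 15.7-fold for Cidec and 8.39-fold for Retn, and at least 13.8-fold for Lep, taking 3 counts as the limit for the 0 counts of KC 1. Plin1 had 2 counts in KC 1 and 295 in KC 2. By contrast KC 2 was 2.63-fold above KC 1 for Pparg, 2.09-fold for Lipe, 1.53-fold for Fabp4 and 0.782-fold for Lpl. With 0.5 added to each count, 6 of the 10 genes were at least 4-fold higher in KC 2. This was so for 4.18% of the 15733 genes that passed the filter on low counts. Lep did not pass it and is high only in KC 2.

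HC control 2 was above HC control 1 8.18-fold for Plin1, 7.28-fold for Cfd, 6.33-fold for Adipoq and 4.56-fold for Cidec, and at least 11.6-fold for Lep and 11.3-fold for Retn. Pparg, Fabp4, Lpl and Lipe differed 1.28-, 1.23-, 0.996- and 0.748-fold between the same libraries. Again 6 of the 10 were at least 4-fold higher, against 0.652% of the 18407 genes that passed the filter on low counts. Lep and Retn did not pass it and are high only in HC control 2. The same 6 genes were at least 4-fold apart in the KC pair and in the HC control pair. They had been named for their span between the libraries of each table, so this follows in part from that choice. Between KMC 1 and KMC 2, 4 of the 10 (Adipoq, Lep, Retn and Plin1) were at least 4-fold higher, against 1.41% of the genes that passed the filter. Lep did not pass it there. Between MC 1 and MC 3 it was 5 of the 10 against 0.676%. Between MC controls 3 and 1 it was 4 of the 10 (Adipoq, Cfd, Plin1 and Cidec) against 0.388%. These pairs were picked after the levels were seen, as the highest and lowest libraries, and carry no test.

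**Figure D3:**
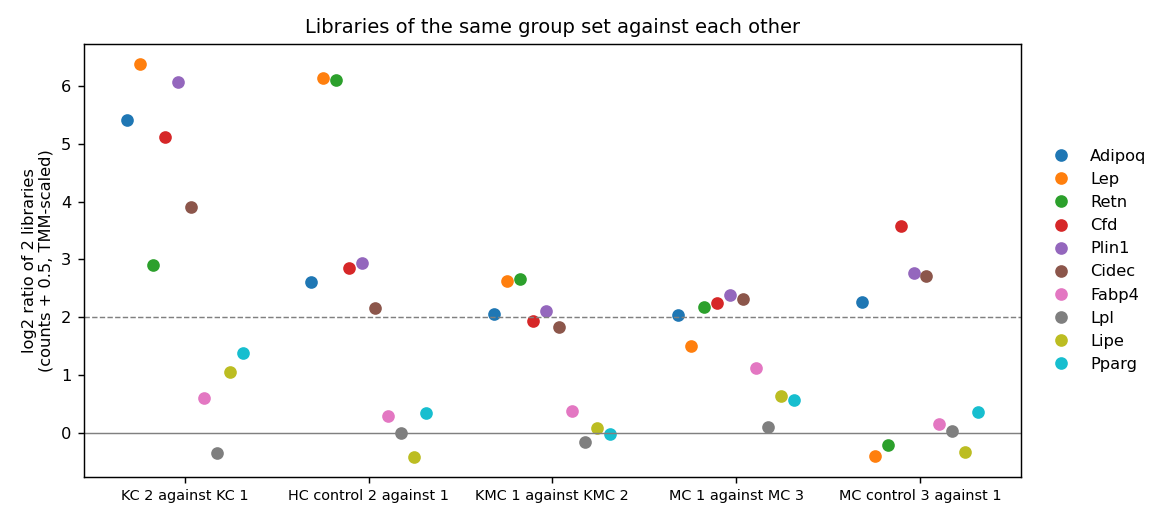
Log2 ratio of 2 libraries of the same group for each of the 10 genes, with 0.5 added to the counts; the dashed line is 4-fold. In KC and in the HC controls all 6 fat-restricted genes lie above the dashed line and Fabp4, Lpl, Lipe and Pparg below it. The 6 had been named for their span between libraries, these among them.

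Mesothelial markers summed to 284 CPM in HC control 2 and 123 CPM in HC control 1, but to 32.8 and 29.7 CPM in KC 2 and KC 1. Lymph node markers summed to 54.8 and 37.1 CPM in HC controls 2 and 1, with Glycam1 at 0 in the latter. In KC 2 and KC 1 they summed to 16.8 and 2.45 CPM, with Cr2 and Fcer2a at 0 in KC 1. The part of these markers in the difference between libraries was not tested. Skeletal muscle markers, for tissue carried along at dissection, stayed between 0.155 and 1.78 CPM in all libraries. Ucp1, the defining gene of brown fat, had 8 counts in HC control 2, 3 in KMC 2 and 0 in the other 7 libraries of these 2 tables, and is not listed in the MC table.

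In the MC experiment and in KMC and KC, the proportions between the fat-restricted genes varied less than their levels. Per kb of exon, the level of Cfd was 3.64 to 11.3 times that of Adipoq in the MC experiment and 6.67 to 8.99 times in KMC and KC. Plin1 was 0.170 to 0.446 times Adipoq in the MC experiment and 0.119 to 0.228 times in KMC and KC. In the HC experiment Cidec was 1.32 to 5.36 times Adipoq per kb, and Cfd 1.34 to 12.9 times. Cidec was 0.298 to 1.34 times in the MC experiment and 0.538 to 1.64 times in KMC and KC, so the ranges overlapped. In contrast, the level of Lpl per kb was 0.944 times that of Adipoq in KC 2, 1.11 times in MC 1 and 72.7 times in HC control 1.

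Of 54 other genes of adipocyte metabolism, listed by role, 51 were fitted in MC, and 29 had a log2 fold change above 0 and 22 below, with a median of 0.07 against -0.02 over all genes. Among those with a mean of at least 1 CPM, the 3 with the largest change in MC were storage genes: Pck1, which makes glycerol for it (2.36, SE 0.82), the droplet coat Plin4 (2.20, SE 0.68) and the acyltransferase Dgat2 (1.78, SE 0.29). The scarcer Adrb3, the β3-adrenergic receptor that starts lipolysis, had a larger log2 fold change of 3.33 (SE 0.54), from 0.0767 ± 0.0382 CPM in the controls to 0.850 ± 0.311 CPM in MC (SD, n = 3 each), and was picked after its values were seen. Dgat2 was at 10.9, 10.4 and 5.38 CPM in MC and 2.34 to 2.86 CPM in the controls. Storage genes as a group did not lie higher, with 4 of 10 above 0 and a median of -0.03. All 5 other secreted factors lay above 0, with a median of 0.80, as did 6516 of all 13902 genes fitted.

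In the libraries labelled HC, 0 of 50 pathway genes were called, 29 lay above 0 and 21 below, and the median was 0.08. Those with the largest change were Cidea, a droplet protein of brown fat (log2 fold change 1.13, SE 0.19, adjusted p = 0.0638), Dgat2 (1.03, SE 0.26, adjusted p = 0.149) and Gpd1, which makes glycerol phosphate (0.74, SE 0.14, adjusted p = 0.0832). DESeq2 and a fit without the filter each called Cidea and Dgat2 higher, as they did 0.851% and 0.714% of all genes. Cidea was at 19.97, 29.8 and 24.7 CPM in the libraries labelled HC and at 11.3 and 11.4 CPM in their controls, and Dgat2 at 77.7, 106 and 93.1 against 32.8 and 57.9 CPM. Like Pparg, these genes did not follow Adipoq in that experiment. In all 10 libraries of the other tables Cidea was below 1 CPM and Dgat2 at 10.9 CPM or less. Of the fitted genes, 7 of 9 storage genes and 7 of 8 lipogenesis genes lay above 0, as did 9175 of all 18407 genes. These counts by role were not tested.

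In KMC, 0 of 50 pathway genes were called by edgeR and 7 by DESeq2, which called 7.64% of all genes. Of these pathway genes, 5 were higher, among them Plin2, Me1, Dio2 and Angptl4, and 2 lower (Mgll and Klf15). By edgeR, 18 lay above 0 and 32 below, with a median of -0.38. All 7 genes of lipolysis lay below 0, with a median of -0.68, and so did 8 of 10 storage genes, while 6 of 8 lipogenesis genes lay above. Over all 15733 genes, 7664 lay below 0 and 8069 above. These counts by role were not tested, and library size alone moved the median of all genes from 0.03 to 1.47. Dio2, a thyroid hormone deiodinase, had the largest change (3.24, SE 0.88, adjusted p = 0.106), with 1.33 and 3.80 CPM in KMC and 0.0681 and 0.426 CPM in KC. Pck1 was also among the 3 with the largest change (-2.12, SE 1.36, adjusted p = 0.347). Pck1 was at 0.136 and 7.28 CPM in KC 1 and 2, and so spread between the KC libraries as the fat-restricted genes did.

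The adiponectin receptors Adipor1 and Adipor2 were present in every library, whatever the level of Adipoq. Adipor1 was at 131 ± 13.0 CPM (SD, n = 3) in MC and 140 ± 17.3 CPM in its controls, and Adipor2 at 81.7 ± 5.12 and 78.4 ± 7.15 CPM. In the libraries labelled HC the log2 fold change was 0.14 for Adipor1 (adjusted p = 0.591), 0.31 for Adipor2 (adjusted p = 0.223), -0.63 for Cdh13, the cell surface protein that binds adiponectin (adjusted p = 0.231), and -0.46 for the leptin receptor Lepr (adjusted p = 0.442). In KMC it was -0.87 for Adipor1 (adjusted p = 0.268), -0.58 for Adipor2 (adjusted p = 0.394), 1.03 for Cdh13 (adjusted p = 0.262) and 1.17 for Lepr (adjusted p = 0.212). None of the 4 receptors was called in either comparison with TMM scaling, but with library size alone Lepr and Cdh13 were called higher in KMC, as were 29.8% of all genes. Lepr was 61.0 to 134 CPM in the HC experiment and 1.36 to 6.69 CPM in the other tables.

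The list holds 3 partners of lipoprotein lipase: Gpihbp1 anchors it on capillaries, Lmf1 folds it and Angptl4 inhibits it. In the libraries labelled HC, where Lpl lay below its controls, their log2 fold changes were 0.10, -0.01 and 0.03, with adjusted p of 0.924 to 0.984 by edgeR. In KMC they were -0.79 (SE 0.49, adjusted p = 0.334) for Gpihbp1, -1.08 (SE 0.37, adjusted p = 0.142) for Lmf1 and 1.87 (SE 0.74, adjusted p = 0.173) for Angptl4. Angptl4 was at 10.7 and 23.4 CPM in KMC and 1.36 and 7.78 CPM in KC. In MC the values were -0.32, -0.18 and 0.13, and all 3 genes overlapped their controls.

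Likeness to Adipoq was measured over the 15 libraries as the root mean square difference of log2(CPM + 0.5), each gene centred on its mean in each table, for the other genes of the list and for 12051 genes outside it with a mean of at least 1 CPM in every table. A smaller value means levels that moved more alike. Plin1 was nearest, at 0.21, then Cidec at 0.44, Retn and Cfd at 0.68 each and Lep at 0.72. Fabp4 stood at 1.02, Lipe at 1.11, Pparg at 1.21 and Lpl at 1.302. Outside the list the nearest was Plin4 at 0.54, then Car3 at 0.56, and the nearest 10 also held Col6a5, Dgat2, Timd4, Ms4a1, Npr3, Pax5 and Hp, the last at 0.85. Car3, a carbonic anhydrase abundant in fat and slow muscle, was at 103, 49.9 and 18.3 CPM in MC and 1.32, 4.23 and 8.85 CPM in the controls. It was at 1.12 and 14.5 CPM in HC controls 1 and 2 and at 1.09 and 80.5 CPM in KC 1 and 2, so it set the same libraries apart. Ms4a1 and Pax5 are B cell genes: Ms4a1 was at 14.2, 3.48 and 0.494 CPM in MC, at 0.775 and 4.12 CPM in HC controls 1 and 2, and at 0.136 and 2.83 CPM in KC 1 and 2. Of these 10 genes, Plin4 and Dgat2 belong to the pathway list. The likeness rests on the same libraries that differ most, and carries no p.

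**Figure D4:**
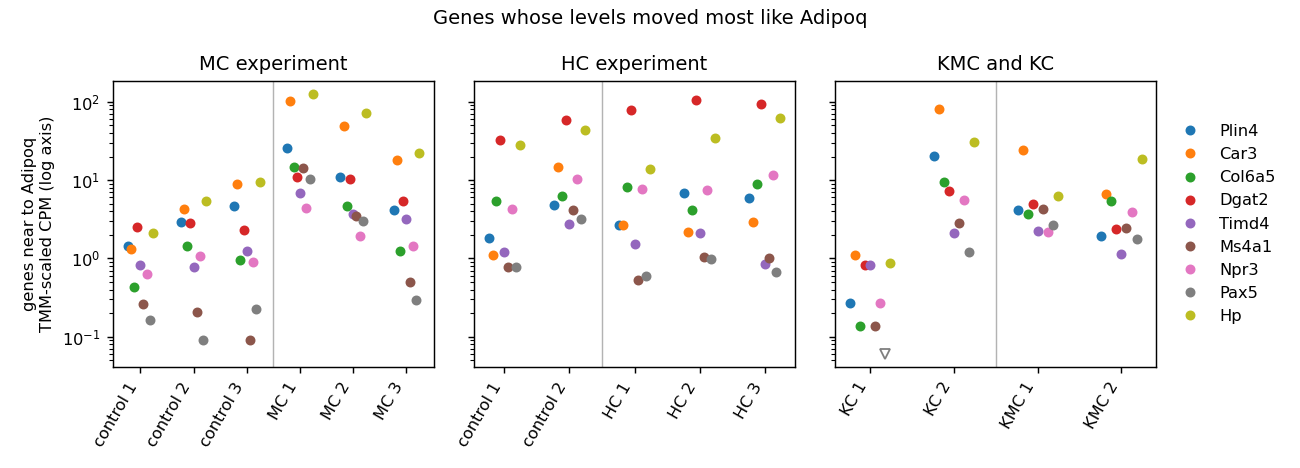
TMM-scaled CPM (log axis) in every library of 9 of the 10 genes outside the list whose levels moved most like Adipoq; open triangles are values under 0.06 CPM. Car3 is at 103 CPM in MC 1 and 80.5 CPM in KC 2 and at 1.09 CPM in KC 1.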

How the data were processed

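RNA-Seq was performed on pancreata, with RNA pooled from 3 mice per library. Per the study's methods, reads were aligned to GRCm38 with STAR and assigned to GENCODE genes, and the authors deposited the raw, unnormalized counts of each gene. The submitters' processing notes list STAR 2.6.1a and HTSeq 0.6.1. The labels and the methods name different RNA and library kits. A deposited DESeq2 table of MC against control, with fold changes and adjusted p-values, was not used. The MC table lists 15175 genes and each of the others 49585.

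The 10 genes, the lists and the tests were chosen with earlier results of these data known. Counts were filtered with filterByExpr, scaled by TMM and tested within each table with edgeR 4.0.16 (glmQLFit, glmQLFTest) in R 4.3.3, with Benjamini-Hochberg adjustment over all genes, and a standard error is the log2 fold change over the root of F. The scripts were tested on simulated data. Alternatives were DESeq2 1.42.0, DESeq2 size factors, library size alone or without acinar genes, no filter, the replicate number as a block, HC, KMC and their controls in 1 fit, and leaving out each library. Beside the 10 genes, the text names the receptors, the Lpl partners, the 3 pathway genes with the largest change (mean level 1 CPM or more) and the 10 genes most like Adipoq. Cell type markers and the genes that only an alternative called were named after their values were seen. A few genes and alleles that these rules would name are not reported here. Lengths are the union of exons in GENCODE M21, and promoter windows come from RefSeq on GRCm38.p6.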

Additional observations from a re-analysis of the deposited data

Results flagged for a closer look

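Fabp4 lay on opposite sides of the controls in MC and in KMC, and in KMC the M46 transgene cannot be told apart from age and sex. Every MC library was above every control, as for 10.9% of the genes fitted. The log2 fold change was 0.87, and 0.50 to 1.09 when a library was left out. Both KMC libraries were below both KC libraries, as for 30.9% of all genes, with -0.92 (edgeR adjusted p = 0.171). The difference between these changes was not tested, and scaling by library size alone turned the KMC value to 0.42.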

How the results depend on the processing

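The count of called genes among the 10 was 0 in the libraries labelled HC and in KMC under every alternative run, except that 5 were called lower in KMC without KMC 1, where 1630 genes were called higher and 682 lower of 16957, so leaving out a library gave 0 to 5. For other pathway genes the HC count rose from 0 to 2 with DESeq2, without the filter and with the replicate block, and was 0 to 1 when a library was left out. The KMC count rose from 0 to 7 with DESeq2, 10 with library size alone, 5 with library size without acinar genes, 8 with the replicate block and 7 with all 4 groups in 1 fit, and was 0 to 10 when a library was left out. The median log2 fold change of the 10 genes in MC was 2.42 to 3.31 when a library was left out. Pparg in MC became 0.26 with library size alone and 0.040 without acinar genes, and -0.29 to 0.10 when a library was left out. In KMC, library size alone gave 0.42 for Fabp4, 0.97 for Lpl, 0.95 for Lipe and 1.14 for Pparg, and scaling without acinar genes gave 0.10 for Lpl, 0.17 for Lipe and 0.37 for Pparg. Leaving out a library in the HC experiment gave -1.81 to 0.84 for Adipoq, -1.71 to 1.26 for Cfd, -0.32 to 0.10 for Fabp4, -2.27 to 0.73 for Plin1, -0.46 to 1.73 for Cidec and -0.36 to 0.060 for Lipe. In KMC it gave -2.95 to 3.02 for Adipoq, -3.20 to 0.93 for Retn, -2.85 to 2.63 for Cfd, -2.90 to 3.93 for Plin1, -2.81 to 1.47 for Cidec, -0.83 to 0.24 for Lipe and -0.72 to 0.68 for Pparg. The cause was not tested. A group left with 1 library was taken to vary like the other group. Same-numbered libraries did not deviate together in every pair (correlations of -0.30 to 0.30 in MC, 0.19 and 0.17 in HC, 0.05 in KMC), so the numbers were not taken as a pairing. With the replicate block, Pparg in the HC experiment had an adjusted p of 0.0410, and over all genes calls went from 86 higher and 18 lower to 184 and 155 in HC and from 1 and 2 to 1663 and 801 in KMC. DESeq2 called 266 higher and 203 lower in HC and 1534 and 596 in KMC. The fit without the filter called 223 and 172 in HC. Over all genes, calls in HC fell to 40 higher and 11 lower without acinar genes and to 1 and 0 in the single fit, and in KMC they were 4694 and 20 with library size alone, 1884 and 26 without acinar genes and 2258 and 972 in the single fit. At 3 counts per library as the limit, Lep could not be followed in 6 of the 9 libraries outside the MC experiment.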
